A study of Mus musculus with 2 samples.

Results

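Fibroblast growth factor (FGF) signalling in the embryonic kidney was described by the chromatin accessibility of 8 genes, the ligands Fgf7, Fgf8, Fgf9, Fgf10 and Fgf20 and the receptors Fgfr1, Fgfr2 and Fgfrl1, out of 21951 protein-coding genes. Every peak that overlapped the gene body or the 2 kb upstream of one of these genes (mm10, GENCODE M21 annotation) was taken, which gave 61 of the 159560 peaks of Enl-WT and 53 of the 130027 peaks of Enl-T1. Fgfr2 was the exception. One GENCODE transcript of that gene reads through 30 other coding genes over 2.96 Mb, so the RefSeq body of Fgfr2 was used, and the longer span served as an alternative. Peaks of both libraries that touched were joined into shared regions. The 8 genes had 68 regions, of which 47 were shared, 14 were peaks of Enl-WT alone and 7 were peaks of Enl-T1 alone.

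Single-nucleus ATAC-seq (snATAC-seq), which marks open chromatin by the cuts of a transposase in each nucleus, was applied to kidneys at E15.5, with 1 library per genotype. Enl-WT was Enl+/+ Wt1 GFPCre/+, and Enl-T1 was Enl flox-T1/+ Wt1 GFPCre/+, so that both genotypes carried the GFPCre knock-in in one copy of Wt1. ENL (encoded by Mllt1) reads acetylated histones through its YEATS domain, and the T1 allele is a small insertion in that domain seen in Wilms tumour. Cre under Wt1 acts in the nephron and stromal lineages, embryo sex was not determined, and the sources used here do not say how many embryos were pooled.

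After barcodes with fewer than 2000 or more than 100000 counts were removed, 9472 Enl-WT nuclei with a median of 14789.5 counts and 12635 Enl-T1 nuclei with a median of 8753 counts remained. Nuclei were clustered and named from marker genes. The classes held, in Enl-WT and Enl-T1 in turn, 1273 and 1668 nephron progenitor cell (NPC)-like nuclei, 1150 and 2713 early nephron epithelium-like nuclei, and 2924 and 4809 interstitial stroma-like nuclei. Ureteric epithelium-like nuclei numbered 769 and 1175, and endothelial-like nuclei 769 and 624. Podocyte-like (312 and 0), proximal tubule-like (918 and 84) and distal tubule- or loop-like (704 and 78) nuclei came mostly from Enl-WT. The summed accessibility of the markers was highest in the class of their own name, except that early nephron epithelium markers summed to more in proximal tubule-like nuclei (499.6 against 411.4 CPM, counts scaled to the total in shared regions, in Enl-WT, 521.1 against 393.3 in Enl-T1). In Enl-T1 the proximal tubule markers also summed to 232.6 CPM in their own class against 234.8 in endothelial-like nuclei. None of the 6 listed markers was at 0 in its own class, apart from 1 immune marker in both libraries. Taken singly, the nephron markers were less clear than their sums. Of the 6 NPC markers, 3 (Enl-WT) and 2 (Enl-T1) peaked in NPC-like nuclei. Only 2 of the 6 early nephron epithelium markers peaked in their own class, whichever the library. By contrast, 5 (Enl-WT) and 6 (Enl-T1) stroma markers did so, and all 6 endothelial markers.

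The libraries stood apart in the nephron lineage. Cluster 7 held 1149 of the Enl-WT early nephron epithelium-like nuclei and cluster 0 held 2658 of those of Enl-T1. Cluster 6 held 1218 of the Enl-WT NPC-like nuclei and cluster 4 held 1317 of those of Enl-T1, and 2 of the stroma-like clusters (10 and 12, with 1006 and 907 Enl-T1 nuclei) were almost without Enl-WT nuclei. Values of these classes were therefore compared between different clusters, and genotype and library cannot be told apart. The early nephron epithelium markers included Wnt4 and Cdh6, and the NPC markers Six2 and Cited1. The study reports higher Wnt4 and Cdh6 and lower Six2 and Cited1 in Enl-T1 progenitors. Whether some Enl-T1 nuclei named early nephron epithelium-like were progenitors was not tested. The nephron classes also moved with the clustering settings. At a lower clustering resolution (0.5) the Enl-T1 NPC-like class fell from 1668 to 111 nuclei, with 44.5% of Enl-T1 nuclei then unnamed. The early nephron epithelium-like class held no nuclei at that resolution, 122 Enl-T1 nuclei with at least 5000 counts per nucleus, and 17 Enl-T1 nuclei when the member regions were left out of the clustering. Values of both nephron classes joined are therefore given where they bear on a result. In values of the whole library, a change in the mix of nuclei and a change within nuclei cannot be told apart. A total of 169 barcode sequences occurred in both libraries.

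FGF ligands bind receptor tyrosine kinases together with heparan sulphate, and the activated receptors signal through the MAP kinase cascade to ETS factors and to feedback inhibitors. In the developing kidney, FGF9 and FGF20 keep nephron progenitors in an undifferentiated state, and FGF8 is needed for the first epithelial vesicles of the nephron. FGF7 and FGF10 reach the ureteric bud, where the receptor FGFR2 serves branching. FGFR1 and FGFR2 act together in the metanephric mesenchyme, and FGFRL1, which lacks the kinase domain, is needed for nephron formation.

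Most of the 8 genes were open in a pattern that followed the lineages. In both libraries stroma-like nuclei ranked first for Fgf7 and Fgfr1, ureteric epithelium-like nuclei for Fgf9, and NPC-like nuclei for Fgf10 and Fgf20. The first place differed for Fgfr2, ureteric epithelium-like in Enl-WT and stroma-like in Enl-T1. For Fgfrl1 it was early nephron epithelium-like in Enl-WT and proximal tubule-like in Enl-T1 (105.3 CPM, interval 75.4 to 143.1). The tubule classes, with 84 and 78 Enl-T1 nuclei, also changed place for Fgf8 and Fgfr1. Nuclei were clustered on these same data, so differences between classes are descriptions. Levels are CPM over the shared regions of a gene, with 95% Poisson intervals on fragments (2 counts each) that cover counting error only. Per kb of peaks in the whole library, Fgfr1 (16.0 CPM per kb in Enl-WT, 17.1 in Enl-T1) and Fgfrl1 (15.7 and 17.8) were the most open and Fgf7 (4.20 and 6.02) and Fgf10 (3.88 and 5.55) the least.

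**Figure D1:**
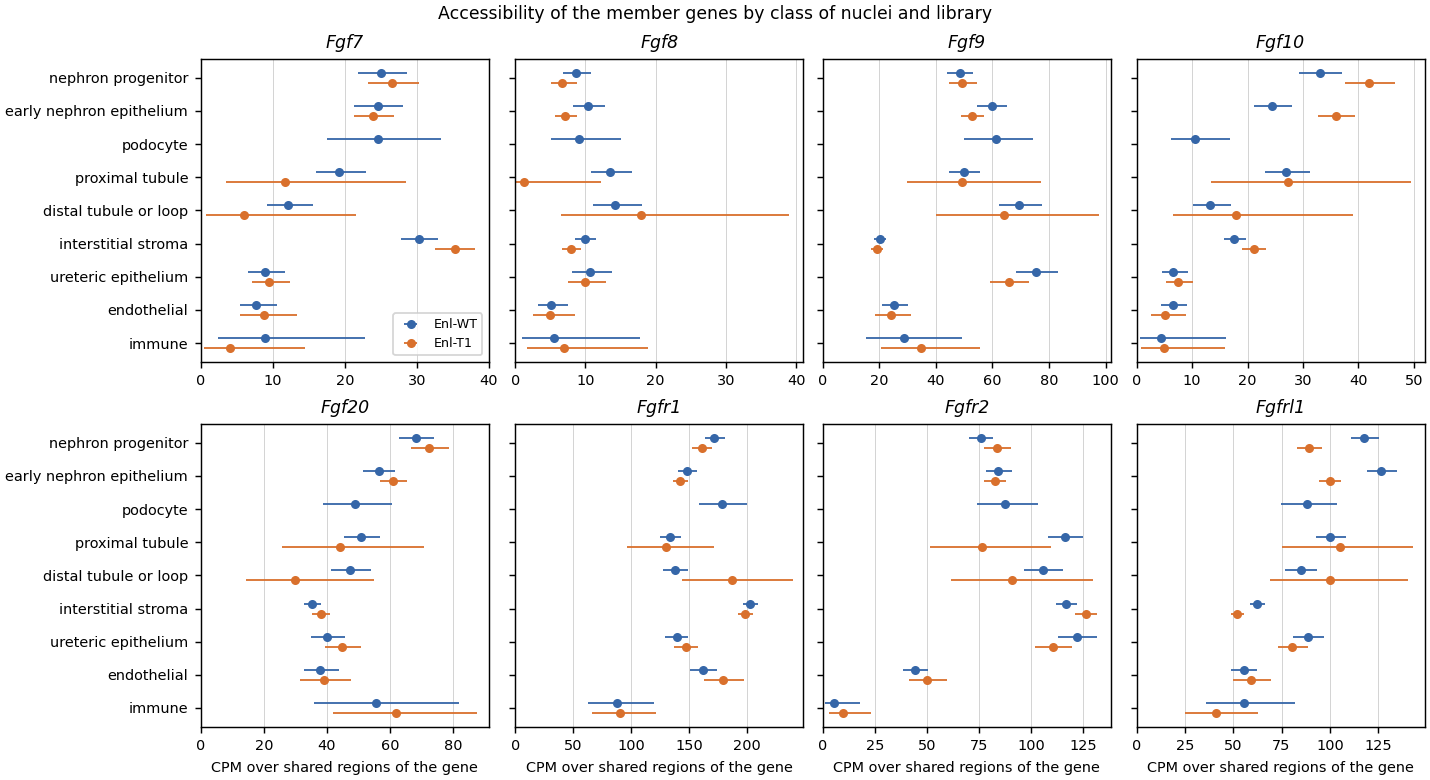
Level of each gene (CPM over its shared regions, x axis, linear from 0) in each class of nuclei (y axis), for Enl-WT and Enl-T1; points are the values of 1 library and lines are 95% Poisson intervals of counting error. Fgf10 and Fgf20 were highest in nephron progenitor-like nuclei, and Fgfr1 stood at 202.5 and 198.2 CPM in stroma-like nuclei.

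Between genotypes, the accessibility of the 8 genes summed over shared regions stayed within 1.5-fold in all classes with enough counts except the tubule classes. Peaks called in 1 library alone were not part of these sums. With a change called at 1.5-fold (0.585 on the log2 scale) in genes with at least 200 counts over both libraries, 0 of 8 members were called in the whole library, where 1.87% of all genes were. None of 8 was called in NPC-like nuclei (background 3.2%), 0 of 8 in early nephron epithelium-like nuclei (4.27%), 0 of 8 in the joined nephron classes (3.42%) and 0 of 8 in stroma-like nuclei (1.79%). The count was also 0 of 7 in ureteric epithelium-like nuclei (1.1%) and 0 of 5 in endothelial-like nuclei (1.99%), and no member had enough counts in immune-like nuclei (5.48%). In proximal tubule-like nuclei 2 of 7 members were called against a background of 18.9%, and in distal tubule- or loop-like nuclei 1 of 5 against 16.4%. With 1 library per genotype there is no replicate spread and no test, and a call means only that a ratio passed the fold.

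The called genes of the tubule classes rested on few Enl-T1 counts. In proximal tubule-like nuclei Fgf7 stood at 19.2 CPM in Enl-WT against 11.7 in Enl-T1 (log2 ratio -0.71, interval -2.48 to 0.61), from 9 Enl-T1 counts. Fgfr2 stood at 116.4 and 76.7 CPM there (-0.60, interval -1.19 to -0.07), from 59 Enl-T1 counts. In distal tubule- or loop-like nuclei Fgf20 stood at 47.3 and 29.9 CPM (-0.66, interval -1.74 to 0.24), from 20 Enl-T1 counts. Only the interval of Fgfr2 lay apart from 0, and its call was lost with the GENCODE span, with scaling by the median of ratios and with nuclei thinned to 2000 counts.

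**Figure D2:**
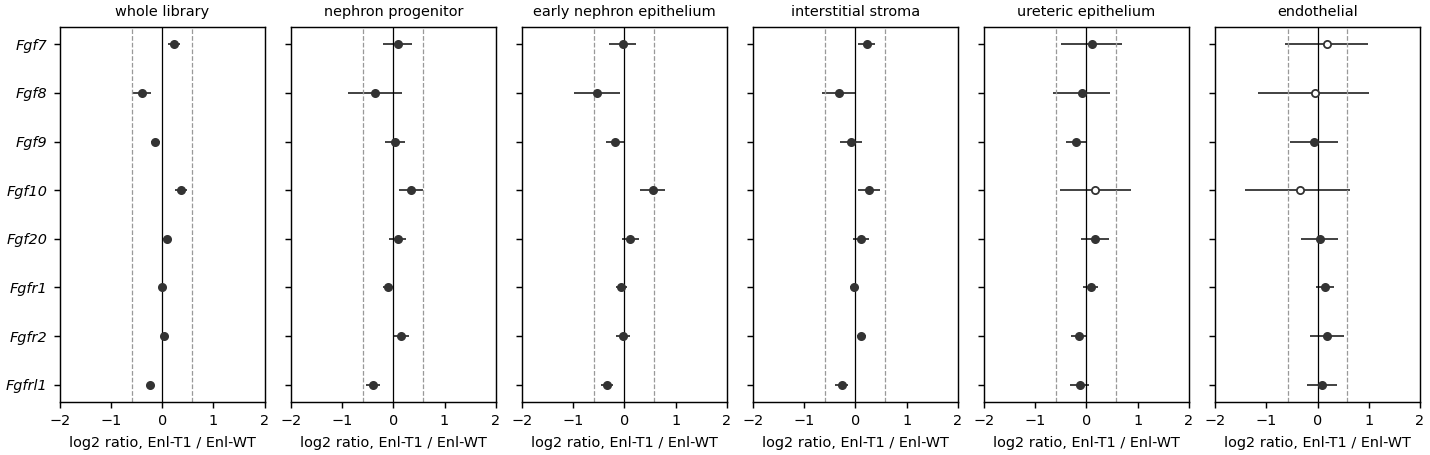
Log2 ratio of Enl-T1 to Enl-WT (x axis) of each gene (y axis) in the whole library and 5 classes; lines are 95% intervals of counting error, dashed lines mark 1.5-fold, and open points have fewer than 200 counts over both libraries. No filled point lies beyond the dashed lines, and Fgf10 in early nephron epithelium-like nuclei comes nearest on the higher side at 0.56.

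Single regions moved more than the sums. In the whole library 3 of 47 member regions passed 1.5-fold, all higher in Enl-T1, where 14.5% of all shared regions with enough counts did. In NPC-like nuclei the count was 3 of 30 (1 higher and 2 lower, background 19.5%), in early nephron epithelium-like nuclei 5 of 32 (2 higher and 3 lower, 23.3%) and in stroma-like nuclei 3 of 37 (all higher, 13.4%). It was 0 of 16 in ureteric epithelium-like nuclei (4.42%) and 0 of 6 in endothelial-like nuclei (6.55%). The members' shares were thus below the background in each of these classes. The median log2 ratio of member regions was -0.03 in NPC-like nuclei and 0.07 in stroma-like nuclei, beside -0.01 and 0.02 over all regions. With both nephron classes joined, 9 of 42 member regions passed, 5 higher and 4 lower, beside a background of 22.5%. The members' share was near that background.

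Fgf20 is described by its own start site, since another gene begins within its longer transcript. The region at the start site (of the transcript that GENCODE marks as principal) stood at 17.4 CPM (14.7 to 20.3) in Enl-WT and at 18.8 (15.9 to 22.0) in Enl-T1 NPC-like nuclei. The value was 14.6 CPM in early nephron epithelium-like nuclei of both libraries. Stroma-like nuclei had 1.40 and 1.83 CPM, and endothelial-like nuclei 1.82 and 2.05. Ureteric epithelium-like nuclei lay between, at 4.43 CPM (2.84 to 6.59, from 48 counts) against 9.31 (6.93 to 12.2, from 102 counts), with a log2 ratio of 1.07 (0.35 to 1.84) that had too few counts for a call. NPC-like and early nephron epithelium-like nuclei thus stood above these 3 classes in both libraries, and the Enl-T1 ureteric epithelium-like value was over the Enl-WT interval. The share of nuclei with a count there was 11.7% (10.0 to 13.6%) in Enl-WT and reached 9.23% (7.89 to 10.7%) in Enl-T1 NPC-like nuclei, at median depths of 15582 and 10427.5 counts. In endothelial-like nuclei, at median depths of 14832 and 7941 counts, it was 1.56% and 0.641%. With every nucleus thinned to 2000 counts, the NPC-like shares were 2.99% and 3.30%, and the endothelial-like shares 0.651% and 0.321%.

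A second Fgf20 region, in an intron of the longer transcript at -1506 bases from the start, was also highest in NPC-like nuclei but fell off more steeply. It stood at 12.9 CPM in Enl-WT compared with 17.5 in Enl-T1 NPC-like nuclei (log2 ratio 0.44, interval 0.07 to 0.81). Early nephron epithelium-like nuclei had 7.38 and 9.60 CPM, stroma-like nuclei 1.07 and 0.583, and ureteric epithelium-like nuclei 0.738 and 0.730, from 8 counts in each library. Its Enl-WT peak (1351 bp) was wider than that of Enl-T1 (823 bp). The remaining signal of the gene was of another kind. A GENCODE transcript of Fgf20 begins at the start site of Micu3, a regulator of mitochondrial calcium uptake, and the region there (-21116 bases) was open at 28.4 to 48.9 CPM in every Enl-WT class. Counts there cannot be assigned to either gene. It made the sum over Fgf20 more even between classes than its start site, with 68.3 CPM in NPC-like and 35.3 in stroma-like nuclei of Enl-WT, and 72.6 and 38.1 in Enl-T1. The log2 ratio of the gene was 0.09 (-0.08 to 0.25) in NPC-like nuclei.

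Fgf9 was most open in ureteric epithelium-like nuclei, at 75.4 CPM (68.3 to 83.1) in Enl-WT and at 65.8 (59.2 to 73.0) in Enl-T1. Distal tubule- or loop-like nuclei followed with 69.5 and 64.2 CPM, within the interval of the first place. NPC-like nuclei had 48.4 and 49.4 CPM, and stroma-like nuclei were lowest in both libraries with 20.3 and 19.1. The start site region (chr14:58071688-58072706) and the region 3709 bases downstream, at another annotated start, held most of this signal, and the latter reached 36.6 and 29.9 CPM in ureteric epithelium-like nuclei.

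The Fgf9 gene changed little in sum (-0.18, interval -0.35 to -0.01, in early nephron epithelium-like nuclei), but its neighbouring introns moved in opposite directions. The region 28816 bases downstream of the start was an element of ureteric epithelium-like (9.04 CPM in Enl-WT, 7.49 in Enl-T1) and distal tubule- or loop-like nuclei. In NPC-like nuclei it stood at 1.48 CPM (0.79 to 2.54) in Enl-WT and at 5.08 (3.66 to 6.88) in Enl-T1, with under 200 counts in all. In early nephron epithelium-like nuclei it stood at 2.52 and 6.64 CPM (log2 ratio 1.40, interval 0.69 to 2.16). With both nephron classes joined, 68 Enl-WT counts and 249 Enl-T1 counts gave 1.99 and 6.03 CPM (1.60, interval 1.04 to 2.19). The early nephron call did not hold when each library was clustered alone (0.03) or with at least 5000 counts per nucleus (-0.08, interval -3.24 to 2.02). In stroma-like nuclei the log2 ratio was 0.27 (-0.36 to 0.91).

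The region 31817 bases downstream, only about 3 kb farther on, was by contrast an element of the nephron lineage. It stood at 11.5 CPM in Enl-WT against 7.47 in Enl-T1 NPC-like nuclei (log2 ratio -0.63, interval -1.11 to -0.15) and at 14.8 and 8.92 CPM in early nephron epithelium-like nuclei (-0.73, interval -1.11 to -0.34). It was below 2.1 CPM in ureteric epithelium- and stroma-like nuclei of both libraries. Joined, the nephron classes had 13.1 and 8.35 CPM (-0.65, interval -0.94 to -0.36). The early nephron value moved to -0.13 when each library was clustered alone and to -0.24 with doublets removed, whereas the NPC-like value stayed past the fold in 10 of 10 alternatives. The last Fgf9 exon (40373 bases downstream, untranslated) also passed the fold in early nephron epithelium-like nuclei, at 7.86 and 3.60 CPM (-1.13, interval -1.71 to -0.56), but its Enl-T1 peak lay outside the gene and did not match in width.

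The central 200 bases of both introns are shown because they lay within one gene and moved apart. They lie on the plus strand at chr14:58101377-58101576, with a GC content of 39%, and chr14:58104423-58104622, with 56.5%. Capitals mark the 1 match to the WT1 motif searched (CTCCCAC, here on the opposite strand).
Fgf9 intron, 28816: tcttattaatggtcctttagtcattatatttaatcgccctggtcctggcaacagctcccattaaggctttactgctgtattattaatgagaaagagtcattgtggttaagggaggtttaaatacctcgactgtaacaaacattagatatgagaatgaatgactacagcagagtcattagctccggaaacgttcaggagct
Fgf9 intron, 31817: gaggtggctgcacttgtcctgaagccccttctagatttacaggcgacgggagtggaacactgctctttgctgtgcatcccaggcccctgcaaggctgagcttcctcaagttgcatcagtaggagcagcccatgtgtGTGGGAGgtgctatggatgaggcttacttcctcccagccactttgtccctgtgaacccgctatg

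**Figure D3:**
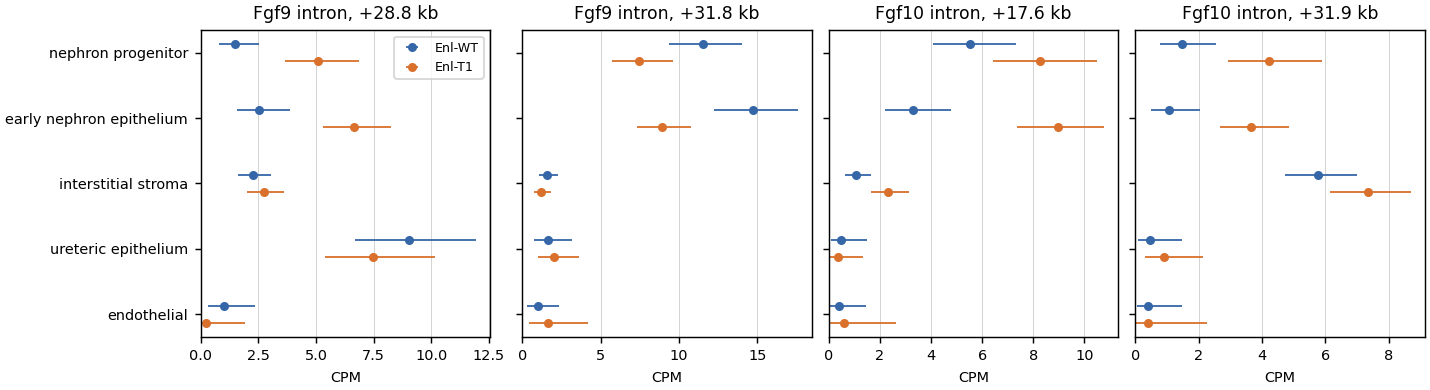
CPM (x axis, linear from 0) of 4 intron regions, Fgf9 at +28.8 and +31.8 kb and Fgf10 at +17.6 and +31.9 kb from the start, in 5 classes (y axis) of Enl-WT and Enl-T1; lines are 95% Poisson intervals of counting error. In both nephron classes the Enl-T1 point was higher at Fgf9 +28.8 kb and both Fgf10 introns and lower at Fgf9 +31.8 kb.

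Fgf10 was highest in NPC-like nuclei and was the ligand with the largest positive ratios between genotypes. It stood at 33.1 CPM (29.4 to 37.1) in Enl-WT and at 42.0 (37.6 to 46.6) in Enl-T1 NPC-like nuclei (log2 ratio 0.34, interval 0.11 to 0.57). Early nephron epithelium-like nuclei had 24.4 and 35.9 CPM (0.56, interval 0.32 to 0.80), and stroma-like nuclei 17.6 and 21.1 (0.26, interval 0.04 to 0.48). Ureteric epithelium-like nuclei were low in both libraries, at 6.64 and 7.49 CPM. All 3 ratios lay apart from 0 by counting error and under 1.5-fold, and each stayed positive under every alternative that gave a value. The size held less well in early nephron epithelium-like nuclei, where it ranged from 0.23 (start site window) to 0.96 (doublets removed, from 135 Enl-WT counts). It passed 1.5-fold there with enough counts in 3 alternatives, with doublets removed, with matched regions alone (0.60) and with each library clustered alone (0.60).

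The higher Fgf10 sum came from introns more than from the start site. The start region (chr13:118714197-118715016) stood at 18.0 and 20.4 CPM in NPC-like nuclei (log2 ratio 0.18, interval -0.14 to 0.51) and 14.8 and 17.3 in early nephron epithelium-like nuclei (0.22, interval -0.10 to 0.56). The region 17602 bases downstream stood at 3.30 and 8.96 CPM in early nephron epithelium-like nuclei (1.44, interval 0.83 to 2.1). In NPC-like nuclei it had 5.54 and 8.27 CPM (0.58, interval 0.02 to 1.14), and in the whole library 2.27 and 4.52 (0.99, interval 0.68 to 1.31). It stayed past the fold in 8 of 8 alternatives in early nephron epithelium-like nuclei, where the log2 ratio ranged from 0.97 to 3.20, and in 9 of 9 in the whole library.

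Another Fgf10 intron, 31864 bases downstream, was in Enl-WT mainly a stroma-like element. It stood there at 5.78 CPM in Enl-WT compared with 7.33 in Enl-T1 (log2 ratio 0.34, interval -0.04 to 0.73). In the joined nephron classes it stood at 1.29 CPM in Enl-WT, from 44 counts, and 3.87 in Enl-T1, from 160 counts (1.59, interval 0.89 to 2.34). The nephron classes taken singly had fewer than 200 counts at this region. A weaker intron 33893 bases downstream passed the fold in the whole library at 0.63. Depth limits these statements, since a region of 44 counts stands for about 22 fragments.

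The centre of the region at 17602 bases is shown because it carried the largest ratio called in a single class and consists largely of a simple repeat. It lies on the plus strand at chr13:118732161-118732360, and 102 of its 200 bases (capitals) are a repeated pair of bases. How uniquely reads were placed there was not tested.
Fgf10 intron, 17602: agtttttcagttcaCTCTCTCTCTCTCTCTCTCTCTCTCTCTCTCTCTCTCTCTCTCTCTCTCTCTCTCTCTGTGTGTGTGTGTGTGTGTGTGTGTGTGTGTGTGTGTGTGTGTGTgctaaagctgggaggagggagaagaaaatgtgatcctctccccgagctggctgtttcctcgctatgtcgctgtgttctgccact

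Fgf7, a ligand of stromal cells, was most open in stroma-like nuclei, at 30.3 CPM (27.9 to 33.0) in Enl-WT and at 35.3 (32.6 to 38.1) in Enl-T1. NPC-like nuclei had 25.1 and 26.6 CPM, and ureteric epithelium-like (8.85 and 9.49) and endothelial-like nuclei (7.69 and 8.80) were low. The coding gene Fam227b runs over Fgf7 on the other strand, and accessibility has no strand. The introns behind the sum differed by lineage. The region 26441 bases downstream (13.8 and 14.3 CPM in stroma-like, 4.74 and 3.80 in NPC-like nuclei) and the one at 30698 bases (7.04 and 6.36 in stroma-like, 0.913 and 1.10 in NPC-like nuclei) were stroma-like elements. The region at 18648 bases was the reverse, with 11.5 and 13.0 CPM in early nephron epithelium-like and 1.40 and 2.89 in stroma-like nuclei.

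Between genotypes the start site of Fgf7 (chr2:126034221-126035091) stood out in stroma-like nuclei, with 5.03 CPM (4.05 to 6.18) in Enl-WT and at 8.75 (7.44 to 10.2) in Enl-T1. The log2 ratio of 0.80 (0.42 to 1.19) kept its call in 9 of 9 alternatives. In NPC-like nuclei the same site stood at 8.45 and 8.33 CPM (-0.02, interval -0.52 to 0.47), and the difference between these classes was not tested. The sum over Fgf7 in stroma-like nuclei was 0.22 (0.05 to 0.38). The thinned share of stroma-like nuclei with a count at the start site was 0.719% (0.445 to 1.10%) in Enl-WT and reached 1.67% (1.33 to 2.07%) in Enl-T1. In the joined nephron classes the region at 26441 bases passed the fold, lower in Enl-T1. It stood there at 3.74 and 2.40 CPM (-0.64, interval -1.21 to -0.09), with peaks of 1242 and 899 bp that did not match.

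Fgf8 had the least data. Its single shared region, a coding exon 5643 bases downstream of the start (chr19:45736700-45737763), stood at 10.2 CPM in Enl-WT against 7.73 in Enl-T1 (log2 ratio -0.39, interval -0.58 to -0.21), with a peak of 1064 bp in the former library and 770 bp in the latter. In early nephron epithelium-like nuclei it stood at 10.3 and 7.12 CPM (-0.54, interval -0.98 to -0.09). That ratio passed 1.5-fold with each library clustered alone (-0.79, interval -1.22 to -0.36) and with doublets removed (-0.66, interval -1.21 to -0.10). The NPC-like ratio, -0.36 (-0.88 to 0.17), passed it with doublets removed (-0.59, interval -1.19 to -0.03) and at resolution 0.5, where the 111 Enl-T1 nuclei had 0 counts at this region. The class order had no clear first place, since the intervals of neighbouring classes overlapped throughout. The Fgf8 start site was a peak in Enl-WT alone, at 10.6 CPM in NPC-like and 8.58 in early nephron epithelium-like nuclei. A peak called in 1 library says nothing of the signal below the threshold in the other, so no ratio is given for it.

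**Figure D4:**
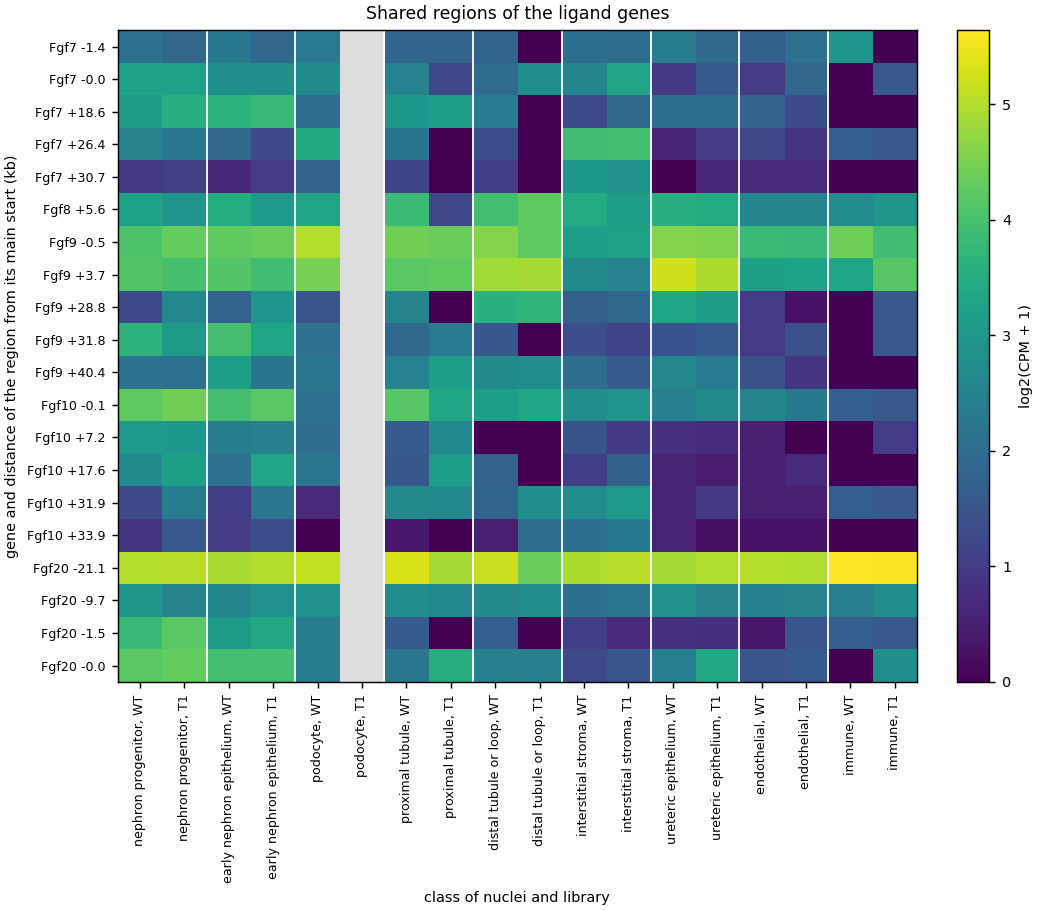
Accessibility, as log2(CPM + 1), of the shared regions of the 5 ligand genes (rows, with distance from the main start in kb) in each class and library (columns); grey marks the absent podocyte-like class of Enl-T1. The start of Fgf20 was bright in the nephron progenitor and early nephron columns of both libraries, whereas Fgf7 at +26.4 kb was brightest in the stroma columns.

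Among the receptors, Fgfr1 was broadly open. It stood at 202.5 CPM (196 to 209.2) in Enl-WT and at 198.2 (191.7 to 204.8) in Enl-T1 stroma-like nuclei, at 171.6 and 160.8 in NPC-like nuclei, and at 87.8 and 90.7 in immune-like nuclei, the lowest class. The start site (chr8:25518329-25520113) differed little between NPC-like (37.0 and 40.2 CPM) and stroma-like nuclei (40.9 and 45.9). Fewer immune-like nuclei, at lower depth, had a count there (7.92% and 4.91%, against 21.1% and 15.1% of stroma-like nuclei). Introns carried the differences between NPC-like and stroma-like nuclei. The region 28291 bases downstream stood at 31.7 and 35.9 CPM in stroma-like and 9.70 and 6.92 in NPC-like nuclei, and the one at 34196 bases at 3.49 and 4.17 in stroma-like and 17.1 and 14.8 in NPC-like nuclei. A coding exon at 45681 bases resembled the latter (15.8 and 14.3 CPM in NPC-like, 3.33 and 2.61 in stroma-like nuclei).

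The sum over Fgfr1 had a log2 ratio of -0.09 (-0.20 to 0.01) in NPC-like and -0.03 (-0.10 to 0.04) in stroma-like nuclei. Within it, the region at -3838 bases, an intron of the longer transcript, stood at 10.7 CPM in Enl-WT compared with 18.4 in Enl-T1 NPC-like nuclei (0.79, interval 0.41 to 1.18), a call kept in 10 of 10 alternatives. In stroma-like nuclei it had 9.65 and 10.8 CPM (0.16, interval -0.14 to 0.47). The region at 25022 bases, highest in stroma-like (62.8 and 52.0 CPM) and endothelial-like nuclei (52.9 and 48.3), went the other way. It stood at 20.6 and 13.4 CPM in early nephron epithelium-like nuclei (-0.62, interval -0.94 to -0.31) and 32.0 and 21.4 in NPC-like nuclei (-0.58, interval -0.86 to -0.31). The early nephron call was kept in 3 of 7 alternatives. At this region the Enl-WT peak was 1284 bp wide and the Enl-T1 peak 886 bp, and the part of that width in the ratio was not tested.

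Fgfr2 was open in ureteric epithelium-like nuclei, at 122.1 CPM (113 to 131.8) in Enl-WT and at 110.6 (102 to 119.8) in Enl-T1, and to a like degree in stroma-like nuclei, at 116.9 (112 to 122) and 126.5 (121.3 to 131.8). These first places overlapped in Enl-WT and did not in Enl-T1. NPC-like nuclei had 76.0 and 83.8 CPM, endothelial-like nuclei 44.1 and 50.1, and immune-like nuclei 5.56 and 9.97. The start site (chr7:130265869-130266792, minus strand) stood between 20.6 and 31.3 CPM in the NPC-like, stroma-like and ureteric epithelium-like nuclei of both libraries, so the sums again hid elements of single lineages.

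The clearest of these was the intron 32211 bases downstream. It stood at 33.3 CPM (30.7 to 36.0) in Enl-WT and at 30.6 (28.1 to 33.3) in Enl-T1 stroma-like nuclei, at 7.19 and 8.51 in NPC-like nuclei and at 3.04 and 3.38 in ureteric epithelium-like nuclei. The region at 50069 bases was also a stroma-like element (9.49 and 13.1 CPM, against 1.54 and 1.71 in NPC-like nuclei). In contrast, the regions at 82123 bases (16.8 and 16.0 CPM) and 58198 bases (18.3 and 15.3) were ureteric epithelium-like elements, at or below 4.25 CPM in stroma- and NPC-like nuclei. The region at 59846 bases reached 24.7 CPM in Enl-WT proximal tubule-like nuclei, and a peak of Enl-WT alone at 56448 bases reached 29.1 CPM in podocyte-like nuclei.

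Between genotypes the sum over Fgfr2 had a log2 ratio of 0.11 (0.03 to 0.20) in stroma-like and 0.14 (-0.01 to 0.30) in NPC-like nuclei. In stroma-like nuclei the region at 91358 bases stood at 4.29 CPM in Enl-WT against 7.61 in Enl-T1 (0.83, interval 0.41 to 1.25), with peaks of 744 and 970 bp that did not match. The region at 2180 bases, at another start, stood at 5.53 and 8.39 CPM (0.60, interval 0.23 to 0.98), and kept its call in 8 of 9 alternatives. In the joined nephron classes a coding exon at 64946 bases stood at 5.47 and 8.91 CPM (0.70, interval 0.34 to 1.08). All 3 were higher in Enl-T1, whereas the regions named in the preceding paragraph as stroma-like or ureteric epithelium-like elements did not pass the fold.

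Fgfrl1 was highest in the nephron classes of Enl-WT, at 126.7 CPM (119.2 to 134.6) in early nephron epithelium-like and 117.7 (110.7 to 125.2) in NPC-like nuclei, and stood at 62.5 in stroma-like nuclei. In Enl-T1 the values were 99.9, 89.1 and 51.9 CPM. The intron at 7160 bases carried the lineage pattern, with 32.6 and 24.7 CPM in early nephron epithelium-like, 23.2 and 18.4 in NPC-like and 2.86 and 2.39 in stroma-like nuclei.

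In summed CPM, all 3 of these classes were lower in Enl-T1. The log2 ratios were -0.34 (-0.46 to -0.22), -0.40 (-0.54 to -0.26) and -0.27 (-0.39 to -0.14). The region at the start site set most of these lower sums. It stood at 65.3 CPM in Enl-WT compared with 42.0 in Enl-T1 NPC-like nuclei (-0.64, interval -0.84 to -0.44). That call was kept in 4 of 9 alternatives, with log2 ratios from -0.64 to -0.28, and was lost in the joined nephron classes (-0.56). The Enl-WT peak at the start site was 2490 bp wide and the Enl-T1 peak 1235 bp (chr5:108693090-108695579 for both together). With only regions that matched by 80% of their width, only the region at -2082 bases from the start remained, and the ratios became 0.01, 0.00 and 0.13. That setting leaves out the start site and the intron at 7160 bases, and the part of peak width in the lower values was not tested.

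**Figure D5:**
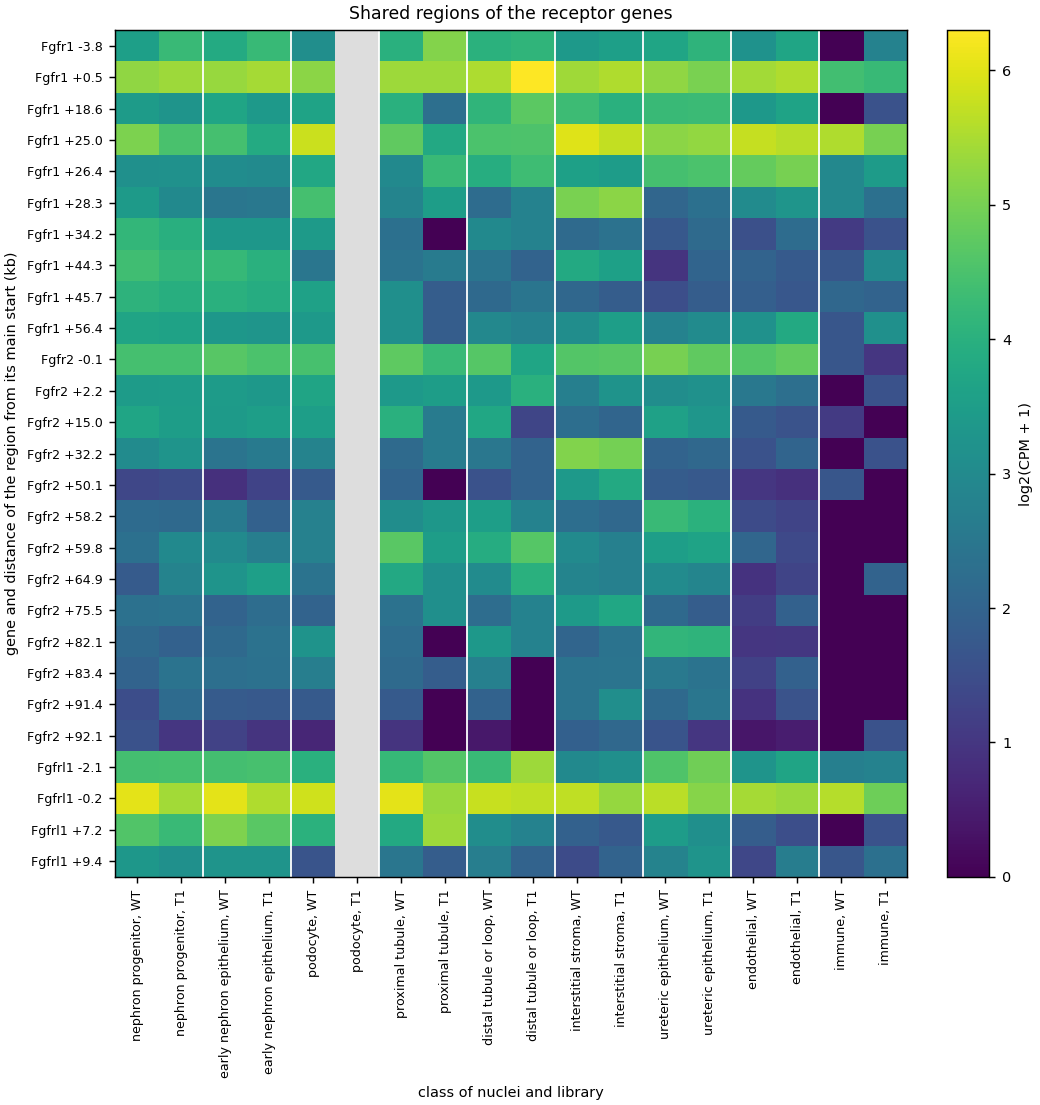
Accessibility, as log2(CPM + 1), of the shared regions of Fgfr1, Fgfr2 and Fgfrl1 (rows, with distance from the main start in kb) in each class and library (columns); grey marks the absent podocyte-like class of Enl-T1. Start sites were open across columns, apart from that of Fgfr2 in the immune columns. Fgfr2 at +32.2 kb was bright in the stroma columns and Fgfrl1 at +7.2 kb in the nephron columns of both libraries.

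Other genes of the pathway were read from fixed lists, summed as the members were. Past 1.5-fold were 3.2% of all genes in NPC-like and 1.79% in stroma-like nuclei. The shares were 4.27% in early nephron epithelium-like nuclei and 3.42% in the joined nephron classes. Of 17 other Fgf ligands, 14 had enough counts in NPC-like nuclei, 0 passed 1.5-fold higher and 1 lower, with a median log2 ratio of -0.02 beside -0.00 for all genes. That 1 was Fgf15, the mouse counterpart of the endocrine ligand FGF19, at 19.8 CPM in Enl-WT against 10.8 in Enl-T1 (-0.88, interval -1.26 to -0.50). In early nephron epithelium-like nuclei 2 of 14 ligands passed, both lower, against 4.27% of all genes, Fgf15 (19.8 and 12.2 CPM, -0.70) and Fgf2 (28.2 and 15.4 CPM, -0.88). In the joined nephron classes these same genes were the 2 of 16 that passed, Fgf15 at 19.8 and 11.6 CPM (-0.77) and Fgf2 at 28.3 and 17.6 CPM (-0.69). In stroma-like nuclei, 1 of 15 ligands passed lower, Fgf21, a hormone of metabolism, at 7.23 and 3.69 CPM (-0.97, interval -1.42 to -0.53).

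Of 7 other receptors and co-receptors, 0 of 7 passed in NPC-like nuclei (3.2% of all genes) and 1 of 6 in stroma-like nuclei (1.79%). The gene that passed was Kl, which encodes the co-receptor klotho, at 6.68 CPM in Enl-WT compared with 13.0 in Enl-T1 (0.96, interval 0.64 to 1.29). Fgfr3 stood at 28.3 and 41.1 CPM in NPC-like nuclei (0.54, interval 0.30 to 0.78) and at 41.0 and 40.7 in stroma-like nuclei. The 7 intracellular mediators, such as Frs2 and Grb2, had 0 calls in either class, with medians of 0.05 and 0.04.

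The 10 targets and feedback inhibitors, which serve as a readout of the pathway in many tissues, also had 0 calls in NPC-like, early nephron epithelium-like and stroma-like nuclei. Their median log2 ratio was -0.00 in NPC-like nuclei and -0.15 in stroma-like nuclei, where 8 of 10 were below 0. Etv4 and Etv5, the ETS factors induced by FGF, stood at 109 and 94.8 CPM and at 124.3 and 126.8 CPM in NPC-like nuclei. Spry1, an inhibitor of receptor signalling, stood at 32.2 and 44.8 CPM there (0.47, interval 0.25 to 0.70) and at 57.3 and 48.9 in stroma-like nuclei (-0.23, interval -0.36 to -0.10). The 10 genes of heparan sulphate and extracellular binding gave 0 calls among the 9 with enough counts, with a median of -0.22 in NPC-like nuclei.

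Genes with the most similar accessibility were found by Pearson's r of log2(CPM + 1) over 17 sums (class by library), which share libraries and depth. Bicc1 (0.97) and Ank3 (0.97) were nearest to Fgfr2, Slain1 (0.96) and Tgfa (0.95) to Fgf9, and Pcdha1 and Pcdha2 (both 0.96), which overlap one another, to Fgf7. Chst5 (0.95) and Kcnj6 (0.94) were nearest to Fgfrl1, Adra1a (0.93) and Asic2 (0.93) to Fgf10, and Atrnl1 and Adam12 (both 0.93) to Fgfr1. Fgf20, whose sum was dominated by the Micu3 start, was nearest to Ndufb4 (0.90) and Sdccag8 (0.90), and Fgf8, with 1 region, to Hmgxb4 (0.89) and Zfp626 (0.87).

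The central 200 bases of the 47 shared member regions were searched on both strands for 8 short motifs. The WT1 motif (CTCCCAC) was in 6 of 47 regions, against 7.64% of all 110665 shared windows. The E-box (CAGCTG) was in 5 of 47 against 17.9%, the AP-1 motif (TGANTCA) in 2 against 7.28%, the Hox motif (TTTATGG) in 2 against 4.05% and the FOX motif (TGTTTAC) in 2 against 3.26%. The TCF/LEF motif (ATCAAAG) was in 1 region against 3.26%, the ETS motif (CCGGAAG) in 1 against 2.97%, and the motif of SIX2 and its relatives (TCANGTTTC) in none against 1.38%. A repeat of 2 bases of at least 10 copies was in 2 of 47, Fgf10 at 17602 and Fgfr2 at 59846 bases, against 1.79%. These are matches of letters and were not read as binding.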

How the data were processed

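The authors aligned the snATAC-seq reads to mm10 with Cell Ranger ATAC 2.1.0, called peaks per library and deposited raw counts per peak and barcode, which are whole numbers without normalisation. Enl-WT held 138176616 counts in 9628 barcodes and Enl-T1 110265593 counts in 13376 barcodes. Of the values, 91.1% and 88.0% were even, so 2 counts were taken as 1 fragment and intervals computed on fragments (exact Poisson for levels, exact binomial for shares and ratios, 95%). Intervals cover counting error only.

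Peaks overlapping by at least 1 bp formed 110706 shared regions (88.8% and 94.9% of the counts), and CPM were scaled to the total of these. Nuclei with 2000 to 100000 counts were clustered by latent semantic indexing (components 2 to 30) and the Leiden algorithm (15 neighbours, resolution 1), without integration and without removal of doublets. The study's filters on fragments were not applied here. A cluster took the class with a marker score of at least 0.4, at least 3 raised markers (0.5 log2, 5 CPM) and a lead of 0.1 over other lineages, a rule set after clusters had been seen. Members, gene lists and tests were chosen with earlier results of these data known.

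Ratios were taken where a class had at least 50 nuclei in each library, and calls needed 200 counts over both libraries and 1.5-fold. For each member the text names the start site and the regions with the highest and lowest ratio in NPC-like and stroma-like nuclei, every member region past the fold, pathway genes past 1.5-fold with an interval apart from 0, and the 2 genes nearest by r. Regions named for their lineage pattern, and Fgfr3, Etv4, Etv5 and Spry1, were chosen after their values were seen. Start sites and genes came from GENCODE M21, and sequences from the GRCm38 genome at the coordinates given, with the body of Fgfr2 from RefSeq. The ratio script was tested on simulated data. Alternatives were scaling by the median of ratios, matched regions, a start site window, thinning to 2000 counts, other clusterings, doublet removal, other minima and folds, and, chosen after seeing the data, the GENCODE span of Fgfr2, regions at other genes' starts left out, and the joined nephron classes. Python 3.11.15, numpy 2.4.6, scipy 1.17.1, pandas 2.3.3, scikit-learn 1.9.0, igraph 0.11.9, leidenalg 0.10.2 and matplotlib 3.10.9 were used.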

Additional observations from a re-analysis of the deposited data

Results flagged for a closer look

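Peaks called in 1 library alone lay outside the comparison of shared regions, and those of the 8 genes with at least 5 CPM in their own library are given here as values. In Enl-WT alone, the start site of Fgf8 stood at 7.31 CPM, an intron of Fgfr2 at 5680 bases from the start at 8.90 CPM and another at 7531 bases at 6.65 CPM. The intron at 5680 bases reached 17.0 CPM in ureteric epithelium-like nuclei, and the one at 7531 bases 17.3 CPM in podocyte-like nuclei. In Enl-T1 alone, the more upstream start of Fgf9 (-2008 bases) stood at 10.8 CPM, with 13.5 CPM in NPC-like and 14.0 in ureteric epithelium-like nuclei. Also in Enl-T1 alone, Fgfr2 had introns at 42587 bases (6.62 CPM) and 97719 bases (6.48 CPM) and an upstream peak at -2397 bases (6.04 CPM). Of these, the upstream peak and the intron at 42587 bases were highest in NPC-like nuclei (10.7 and 11.3 CPM) among NPC-like, stroma-like and ureteric epithelium-like nuclei, and the intron at 97719 bases in ureteric epithelium-like nuclei (17.5 CPM). Counts under such a peak were not analysed here for the other library, and whether the other library differed was not tested.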

How the results depend on the processing

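No paired analysis was possible because each genotype is 1 library. Early nephron epithelium-like nuclei gave no values at resolution 0.5 (0 nuclei) and with the member regions left out of the clustering (17 Enl-T1 nuclei). Of 595 gene ratios under alternatives, 530 kept their sign and 43 left the interval of the reported ratio. The count of called member genes stayed within 1.5 times in the whole library, stroma-like and endothelial-like nuclei. It rose from 0 to 1 (Fgf8) in NPC-like nuclei at resolution 0.5 and with doublets removed, from 0 to 1 (Fgf10) with matched regions and to 2 (Fgf8 and Fgf10) with doublets removed or each library clustered alone in early nephron epithelium-like nuclei, and from 0 to 1 with thinning in ureteric epithelium-like nuclei. In proximal tubule-like nuclei it fell from 2 to 1 with matched regions, the start site window, the GENCODE span or 5000 counts per nucleus, and to 0 with the median of ratios, thinning or a fold of 2. In distal tubule- or loop-like nuclei it went from 1 to 0 with the median of ratios, resolution 0.5, components 2 to 15, 5000 counts per nucleus or a fold of 2, and to 2 with matched regions or a minimum of 50 counts. Called member regions in NPC-like nuclei were 3 of 30. They became 5 of 29 (lead of 0.2), 5 of 33 (each library alone), 6 of 31 (doublets removed) and 7 of 29 (components 2 to 15). The count was 9 of 42 (joined classes), 9 of 45 (50 counts), 11 of 24 (resolution 0.5) and 0 of 30 (a fold of 2). In early nephron epithelium-like nuclei called regions went from 5 of 32 to 2 of 6 (5000 counts per nucleus), 3 of 24 (matched regions) and 3 of 32 (a fold of 2). They reached 8 of 44 (50 counts), 9 of 33 (each library alone) and 9 of 42 (joined). In stroma-like nuclei they went from 3 of 37 to 1 of 28 (matched regions), 8 of 47 (50 counts) and 0 of 37 (a fold of 2). The whole library fell from 3 to 0 of 47 at a fold of 2. With 50 counts, ureteric epithelium-like nuclei had 2 of 35 and endothelial-like nuclei 1 of 17. Shares of all genes or regions under these settings were not computed, apart from the joined classes (22.5% of regions). The counts are therefore not read as results about the members. The Fgf9 intron at 28816 bases reversed in early nephron epithelium-like nuclei, at -0.076 with 5000 counts per nucleus, where 6 member regions had enough counts. More regions were tested with the minimum of 50 counts, and for the other settings the cause was not tested. Depth limits regions under 200 counts, which were given no call.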
